A study of Mus musculus with 16 samples.

Results

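Bulk RNA from 15 of 16 mouse small cell lung tumors was compared between 7 tumors with Neurod1 RNA and 8 tumors with little or none. A tumor was called Neurod1-positive at 1 FPKM or more in the deposited table (FPKM, a read level normalised for transcript length and library size) and Neurod1-negative below that. The remaining tumor, sgControl RPP tumor 1, was left out because its column was distributed unlike the others: its median over expressed genes was 2.38 FPKM against 10.0 to 12.4 FPKM, while its values summed to 1017060 FPKM against 471024 to 559038. The groups were chosen by the deposited Neurod1 values, so these are given as a description with no test, and Neurod1 is left out of every comparison.

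The tumors came from H11-LSL-Cas9 mice (B6;129-Igs2tm1(CAG-cas9*)Mmw/J), which express Cas9 once Cre removes a stop sequence. At 2 to 4 months of age the mice received, through the trachea, an adenovirus with Cre under the CMV promoter and sgRNAs, and tumors were taken at the study's endpoint. All 15 tumors carry the RPP set of sgRNAs, read here from knowledge of the model as sgRNAs against Rb1, Trp53 and Rbl2. Of the 15, 7 had the label sgControl RPP (a control sgRNA) and 8 the label sgKdm5a RPP (an added sgRNA against the histone H3 lysine 4 demethylase Kdm5a), and each had its own lung tumor number. The labels do not say whether each tumor came from a different mouse. Editing can differ between tumors and between cells of a tumor, and the edited DNA was not analysed here. Kdm5a RNA was not lower under the sgKdm5a label: it lay between 8.59 and 20.4 scaled FPKM in the 8 sgKdm5a-labelled tumors and between 5.68 and 8.63 in the 7 sgControl-labelled tumors. The label entered the main comparison as a covariate.

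NEUROD1 is a proneural basic helix-loop-helix transcription factor that dimerises with E proteins and drives neuronal and endocrine differentiation, for example in the retina, the cerebellum and the pancreatic islet. In human small cell lung cancer it defines 1 of the neuroendocrine subtypes. Known NEUROD1-associated genes include other bHLH factors such as Neurod2, Neurod4 and Nhlh1, and neuronal genes.

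Neurod1 RNA spread over a wide range without a gap at the threshold. The deposited values in the positive tumors were 22.05 FPKM in sgKdm5a RPP tumor 2, 10.3 in sgKdm5a RPP tumor 1, 5.35 in sgControl RPP tumor 2, 4.52 in sgKdm5a RPP tumor 6, 4.15 in sgKdm5a RPP tumor 5, 3.30 in sgControl RPP tumor 8 and 1.37 in sgControl RPP tumor 6. The last of these lay just inside the threshold, and sgKdm5a RPP tumor 7, at 0.983 FPKM, lay just outside it. The other negative tumors had 0.333 FPKM (sgKdm5a RPP tumor 4), 0.302 FPKM (sgKdm5a RPP tumor 8), 0.245 FPKM (sgControl RPP tumor 4) and 0.0307 FPKM (sgControl RPP tumor 3). Neurod1 was listed at 0 in the remaining 3, sgControl RPP tumors 5 and 7 and sgKdm5a RPP tumor 3. The tumor left out had 0.113 FPKM.

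Neurod1-positive tumors were found under both labels and in both ranges of lung tumor numbers. They made up 3 of 7 sgControl-labelled and 4 of 8 sgKdm5a-labelled tumors. Among tumors numbered 190 to 238 they were 5 of 10, and among tumors numbered 839 to 893 they were 2 of 5. What the ranges of numbers stand for is not given in the sources used here.

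For the comparison of all other genes, each column was divided by its own median over expressed genes and returned to a common median, giving scaled FPKM. Differences are positive minus negative on log2(scaled FPKM + 1) with the sgRNA label as covariate, a scale on which changes of weakly expressed genes appear too small. No gene passed the test: of 14119 genes, 0 differed at an adjusted p under 0.05 (limma, Benjamini-Hochberg), and the smallest adjusted p was 0.9998. At an unadjusted p under 0.05 there were 256 genes with a higher mean in the positive tumors (1.81% of those tested) and 162 with a lower mean (1.15%), together 2.96%. A threshold of 0.05 would on average give a larger share if no gene differed. These counts depended on single tumors. Without sgControl RPP tumor 2 the first was 139, without sgKdm5a RPP tumors 3 or 6 it was 405 or 385, and the second was 86 without sgKdm5a RPP tumor 5 and 270 without sgKdm5a RPP tumor 3. In 0 genes did the 7 positive tumors all lie above, or all below, the 8 negative tumors (0% in each direction). The values below are therefore descriptions of these tumors, and none of their adjusted p-values is below 0.9998 unless another is given. Since whole tumors were sequenced, fewer cells with Neurod1 RNA and less of it per cell cannot be told apart.

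None of the proneural factors described here separated the groups. Neurod4, a related factor that acts in neuronal differentiation, ran from 0.646 to 10.8 scaled FPKM in the positive tumors (median 2.74) and from 0.0825 to 8.94 in the negative tumors (median 2.01), a log2 difference of 0.52 (standard error 0.52). Its highest values stood in sgControl RPP tumor 2 among the positive tumors and in sgControl RPP tumor 5, with Neurod1 listed at 0, among the negative tumors. Neurog3, which acts upstream of Neurod1 in the endocrine pancreas, ran from 1.09 to 166 scaled FPKM (median 48.7) in positive tumors and from 2.46 to 121 (median 15.5) in negative tumors. Its lowest value of all was in sgKdm5a RPP tumor 2, the tumor with the most Neurod1, and its log2 difference was 0.36 (standard error 0.95). Neurod2 was listed at 0 in all 15 tumors. Neurod6, Neurog1, Neurog2, Atoh1, Nhlh1 and Nhlh2, further bHLH factors of developing neurons, stayed below 1 FPKM in every tumor, with a highest scaled value of 0.461 for Nhlh1 in sgKdm5a RPP tumor 5.

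**Figure D1:**
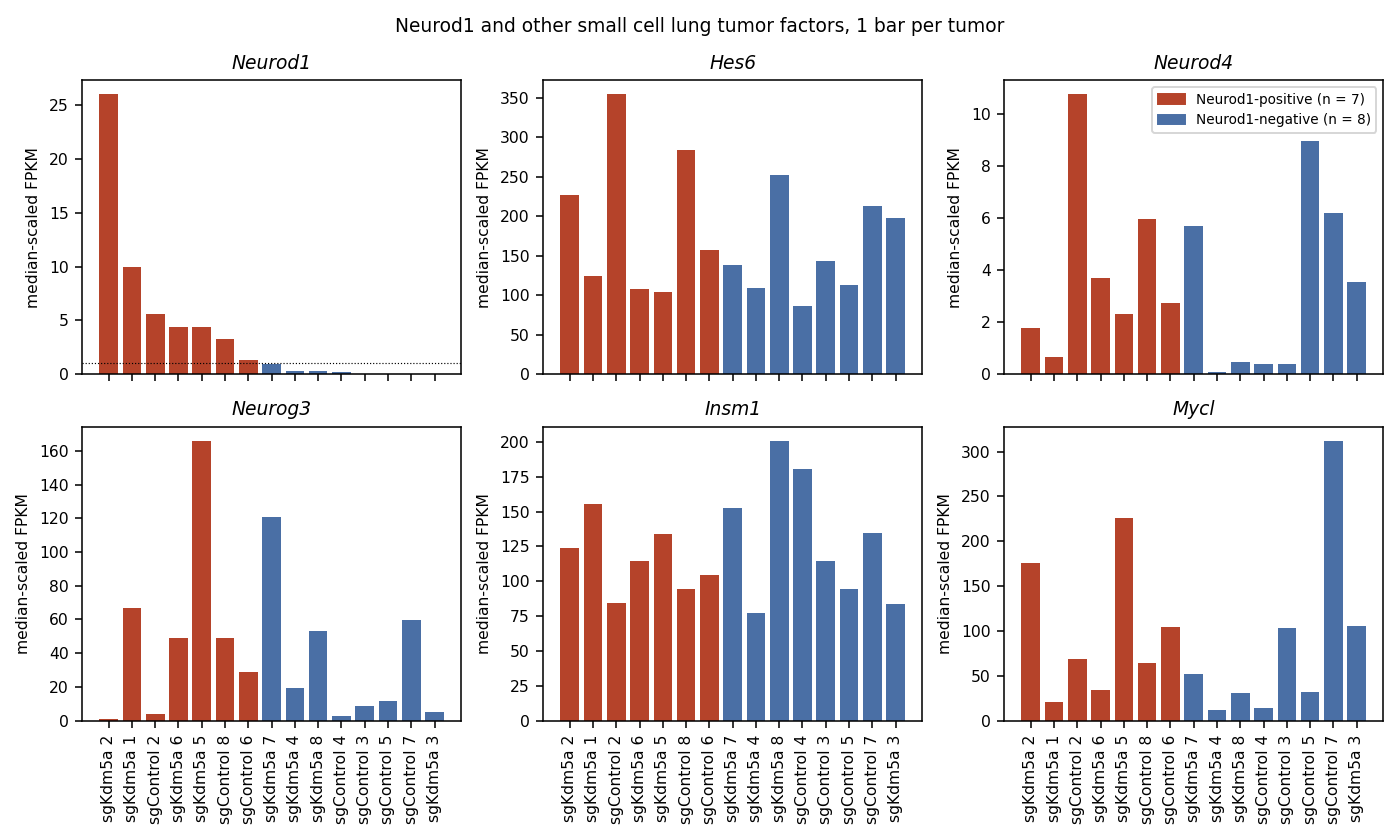
Scaled FPKM (vertical axis, linear, starting at 0) of Neurod1, Hes6, Neurod4, Neurog3, Insm1 and Mycl in each of the 15 tumors, ordered by Neurod1 from high to low, with positive tumors in red and negative tumors in blue. The dotted line in the Neurod1 panel marks 1; Neurog3 is lowest in the tumor with the most Neurod1 (1.09), and none of the other 5 factors separates the groups.

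Over the list of proneural bHLH factors and their partners, 14 of 26 members passed the filter on low values and 0 were called. Of the 14, 11 had a difference above 0, against 53.3% of all tested genes, and their median was 0.14 against 0.017 over all genes. Id2, an inhibitor of bHLH dimers, had a median of 90.8 scaled FPKM in the positive and 79.0 in the negative tumors (log2 difference 0.48, standard error 0.39). Hes6, which favours neuronal differentiation, had medians of 158 and 141 (0.26, standard error 0.30). The E protein Tcf12 had medians of 44.4 and 34.7 (0.27, standard error 0.23).

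Insm1, a zinc finger factor common to neuroendocrine cells, averaged 116 ± 24.4 scaled FPKM in the positive (SD, n = 7) and 130 ± 45.7 in the negative tumors (SD, n = 8). Its log2 difference was -0.12, with a 95% interval of -0.58 to 0.33. Of the neuronal transcription cascade, 22 of 37 members were tested, 14 lay above 0 and 0 were called (median 0.062). Zeb1, a repressor of epithelial genes in that list, had medians of 4.16 in the positive and 5.62 scaled FPKM in the negative tumors (-0.45, standard error 0.24).

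Genes linked to the NEUROD1 subtype in the literature gave 19 tested members of 26, of which 12 lay above 0 (median 0.14) and 0 were called. Stmn2, a microtubule regulator of growing neurons, was the member of smallest unadjusted p in that list and in the list of neuronal structure genes. In positive tumors Stmn2 had a lowest value of 0.853, a median of 3.56 and a highest value of 54.1 scaled FPKM, and in negative tumors 0.282, 1.16 and 7.88. The high values were in sgKdm5a RPP tumors 5 and 2, the groups overlapped, and the log2 difference was 1.36 (standard error 0.63). Lmo1, a LIM-only transcriptional cofactor, had medians of 26.0 and 15.7 (0.54, standard error 0.54), and the somatostatin receptor Sstr2 had medians of 43.0 and 20.1 (0.40, standard error 0.39). Both were picked after their values were seen. The other way, 7 of the 19 tested members lay below 0, among them Myc (-0.47) and Insm1 (-0.12). Of the 39 neuronal structure and adhesion genes, 36 were tested, 20 lay above 0 and their median was 0.048.

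Among the MYC family, Mycl ran from 21.1 to 226 scaled FPKM in positive and from 11.2 to 312 in negative tumors, with a log2 difference of 0.66 (standard error 0.68). Myc, which in mouse models is linked with Neurod1-positive disease, was not higher in the positive tumors: its median was 4.38 scaled FPKM there and 4.77 in the negative tumors, with a highest value of 27.1 in sgKdm5a RPP tumor 8, a negative tumor. The log2 difference of Myc was -0.47, with a 95% interval of -1.19 to 0.26. The subtype factor Pou2f3, a marker of the tuft cell-like subtype, stayed at 0.205 scaled FPKM or less in all 15 tumors.

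Islet and enteroendocrine factors, some of which act with Neurod1 in the pancreas, had 12 tested members of 20, with 1 above 0 and 0 called (median -0.11). The single member above 0 was Foxa2, a forkhead factor of endoderm, at 119 ± 10.7 in the positive and 105 ± 22.8 scaled FPKM in the negative tumors (0.18, standard error 0.12), while Foxa1 had medians of 56.1 and 89.2 (-0.54, standard error 0.36). Isl1 and Nkx2-2, factors of islet cell identity, fell below the filter but stood out in a few tumors. Nkx2-2 reached 10.7 scaled FPKM in sgKdm5a RPP tumor 2, 3.31 in sgKdm5a RPP tumor 1 and 2.34 in sgKdm5a RPP tumor 7, and was at most 0.188 in the other 12. Isl1 reached 5.43 in sgKdm5a RPP tumor 1, 5.05 in sgKdm5a RPP tumor 7 and 0.733 in sgKdm5a RPP tumor 2, and was at most 0.179 elsewhere. All 3 tumors had the sgKdm5a label. Of these 3 tumors, sgKdm5a RPP tumors 2 and 1 had the most Neurod1 of the 15 and sgKdm5a RPP tumor 7 lay just under the threshold. The remaining positive tumors were among the other 12. Nkx2-2 was picked after its values were seen. Pax6, a paired-box factor of the eye and islet, reached 1.66 in sgControl RPP tumor 2 and 1.55 in sgKdm5a RPP tumor 2.

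More hormone and granule genes lay below 0 than above it, without a call. Of 25 tested granule and prohormone processing genes of 27 listed, 11 lay above 0 and 14 below (median -0.11). Chga, chromogranin A of secretory granules, had a lowest value of 262, a median of 351 and a highest value of 1007 scaled FPKM in positive tumors, against 134, 822 and 1936 in negative tumors. Its groups overlapped over most of their range (log2 difference -0.66, standard error 0.40). Th, the rate-limiting enzyme of catecholamine synthesis, was at most 4.26 in the positive tumors, while 3 negative tumors held 17.4, 52.7 and 63.8 and the other 5 held 0.223 to 6.41 (log2 difference -1.78, standard error 0.77). Pcsk1, a prohormone convertase, had medians of 218 and 341 (-0.51, standard error 0.31). Among peptide hormones, 20 of 33 were tested, 5 lay above 0 and 15 below (median -0.22). Pyy, peptide YY of enteroendocrine cells, was at most 0.762 in positive tumors and reached 9.61 in negative tumors, in 3 of which it was 0.517 or less (-1.22, standard error 0.49). Pyy reached 1 FPKM in 0 positive and 5 negative tumors, so it passed the filter only through the negative tumors and had to lie lower in the positive ones. Of the KATP channel and excitability genes, 20 of 22 were tested and 4 lay above 0 (median -0.13), with Scn8a, a neuronal sodium channel, at medians of 1.41 and 2.15 (-0.33, standard error 0.17).

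In the NOTCH pathway, whose activity opposes the neuroendocrine state, all 23 members were tested, 6 lay above 0 and 0 were called (median -0.22). Its ligands lay on both sides of 0. Jag1 had medians of 2.18 in the positive and 5.04 scaled FPKM in the negative tumors (log2 difference -0.63, standard error 0.30), whereas Dll1 had medians of 12.8 and 9.89 (0.50, standard error 0.25). The list of YAP and non-neuroendocrine genes gave 4 of 19 tested members above 0 (median -0.30), of 22 listed. Several genes of that list are also expressed by stroma, whose marker levels are given below.

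Most S phase genes had a higher mean in the positive tumors, without a call. All 22 E2F and S phase genes were tested, 19 lay above 0 and their median was 0.19. Pcna, the sliding clamp of DNA replication, had a lowest value of 484, a median of 553 and a highest value of 610 scaled FPKM in the positive tumors, against 293, 445 and 655 in the negative tumors. The positive tumors sat in a narrow band, with 1 negative tumor (sgControl RPP tumor 4) above it, and the log2 difference was 0.35 (standard error 0.16). Mcm4, a subunit of the replicative helicase, ran from 57.6 to 68.5 in positive and from 40.5 to 64.3 in negative tumors (0.25, standard error 0.12). Mcm6 of the same helicase had medians of 165 and 114 (0.36, standard error 0.19). Of 20 mitosis genes, 14 lay above 0 with a median of 0.065, and the kinase Aurka had medians of 45.6 and 40.7 (0.35, standard error 0.21).

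**Figure D2:**
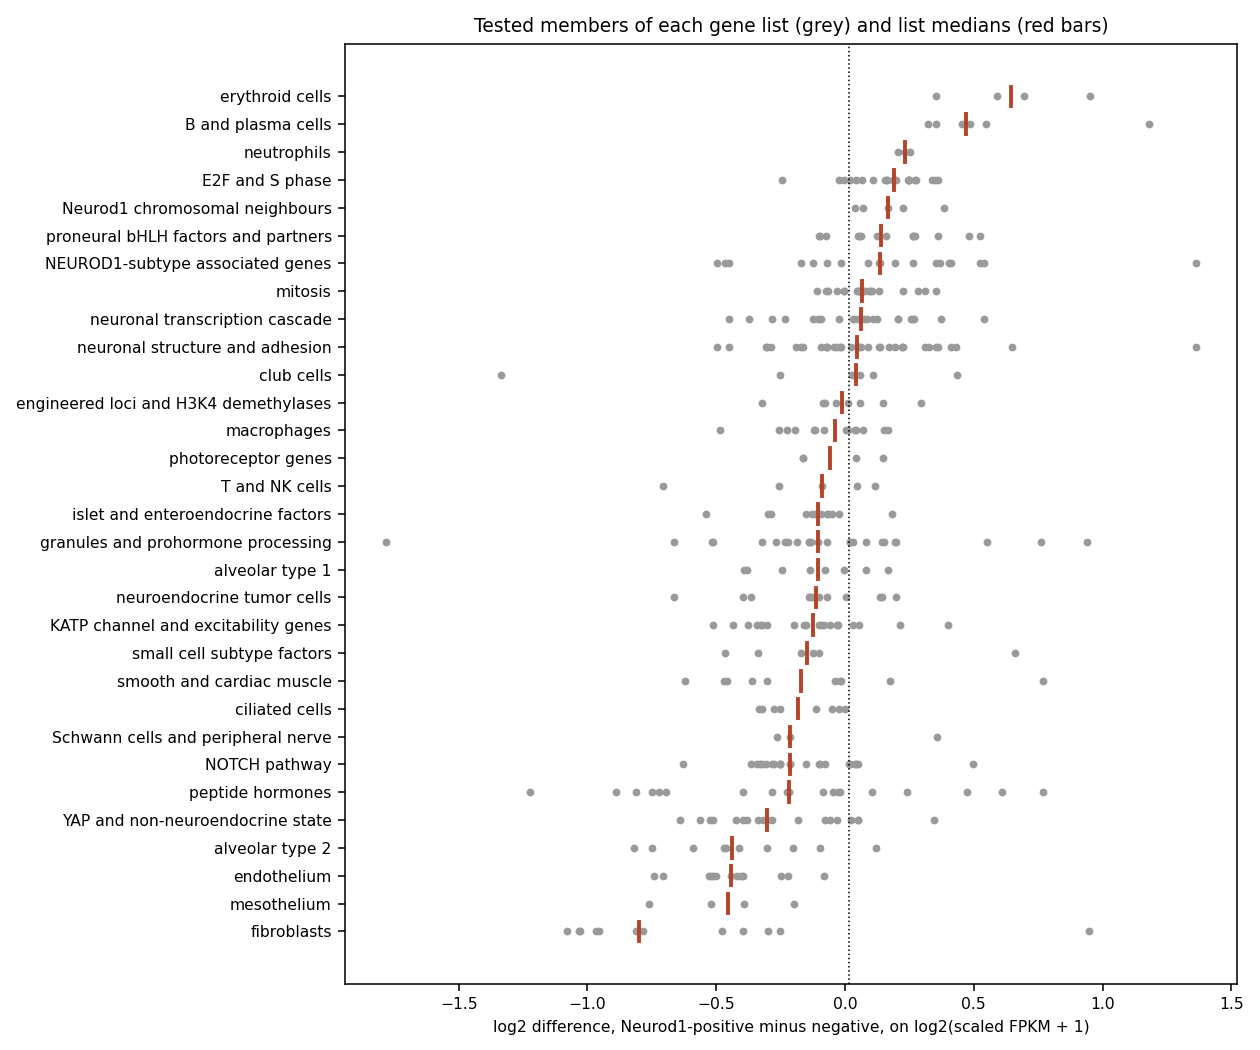
Log2 difference, Neurod1-positive minus negative, on log2(scaled FPKM + 1), for each tested member of each gene list shown (grey points), with the list's median as a red bar and the median of all 14119 tested genes (0.017) as a dotted line. List medians run from -0.80 (fibroblasts) to 0.64 (erythroid cells), and 0 members were called.

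Markers of stroma and normal lung mostly had a lower mean in the positive tumors, without a call. All 13 endothelial markers lay below 0 (median -0.44), with a summed level of 85.8 to 203 scaled FPKM in the positive tumors (median 96.9) and 96.2 to 282 in the negative tumors (median 167). Of 12 fibroblast markers, 11 lay below 0 (median -0.80), with sums of 63.9 to 488 (median 171) and 70.1 to 1635 (median 210). The exception was Dcn, a proteoglycan of connective tissue. Of 10 alveolar type 2 markers, 9 lay below 0 (median -0.44), with sums of 76.6 to 2899 (median 136) and 77.9 to 5636 (median 411). All 4 tested mesothelial and all 8 tested ciliated cell markers lay below 0 as well, with medians of -0.46 and -0.18. Club cell markers, of the secretory cells of the airways, did not follow: 4 of 6 tested lay above 0 (median 0.044), with sums of 54.6 to 27778 in the positive (median 3029) and 26.9 to 59154 in the negative tumors (median 995).

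Erythroid and B lineage markers lay the other way. All 6 tested B and plasma cell markers were above 0 (median 0.47), with sums of 5.93 to 87.8 in the positive (median 26.0) and 3.77 to 69.9 in the negative tumors (median 9.83). Mzb1, an endoplasmic reticulum protein of plasma cells, had medians of 5.63 and 1.87 (1.18, standard error 0.56). All 4 tested erythroid markers were above 0 (median 0.64), with sums of 144 to 1410.3 (median 764) and 115 to 1382 (median 402). Macrophage markers were split, with 7 of 14 above 0 (median -0.038). So were T and NK cell markers, with 2 of 5 tested above 0 (median -0.091), while all 3 tested neutrophil markers lay above 0 (median 0.23). No marker in the table from the endothelial, fibroblast, alveolar, B cell or macrophage lists was at 0 in all tumors, and the summed level of each list was above 0 in every tumor. The part of this tissue content in the other differences was not tested. With the mean log2 level of the macrophage, fibroblast, endothelial and alveolar type 2 markers as a further covariate 0 genes were called. The main comparison already called 0, so this count cannot show that part.

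Most of the genes of smallest p with a higher mean in the positive tumors lie on 1 chromosome. Cdk11b, a cyclin-dependent kinase that acts in transcription and splicing, had a lowest value of 44.9, a median of 56.2 and a highest value of 82.8 scaled FPKM in the positive tumors, against 18.7, 33.3 and 50.7 in the negative tumors. Only the ends of the ranges overlapped, and the log2 difference was 0.83 (standard error 0.18, unadjusted limma p of 0.000355). Acot7, an acyl-CoA thioesterase abundant in neurons, averaged 217 ± 62.9 against 109 ± 31.2 (0.97, standard error 0.21). Rpl22, a ribosomal protein, averaged 152 ± 55.5 against 76.7 ± 13.2 (0.90, standard error 0.21). Rere, a nuclear receptor corepressor, averaged 45.2 ± 16.8 against 25.1 ± 6.24 (0.77, standard error 0.19). Others of the 10 were Pank4, Cpsf3l, BC051226, Dnajc11 and Klhl17, with differences of 0.59 to 0.94. By the gene order of RefSeq (assembly GRCm38.p6), 9 of these 10 lie on chromosome 4, all but BC051226, and 17 of the 20 genes of smallest p with a higher mean lie there.

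The 10 genes of smallest p with a lower mean in the positive tumors had no such common place. Adcy7, an adenylate cyclase, ran from 2.35 to 8.97 scaled FPKM (median 4.87) in the positive and from 5.10 to 14.4 in the negative tumors (-0.89, standard error 0.24). Hmga1, an architectural chromatin protein, averaged 6.79 ± 1.95 against 10.5 ± 2.51 (-0.55, standard error 0.17). Cntfr, the ciliary neurotrophic factor receptor, averaged 7.65 ± 2.77 against 13.7 ± 3.93 (-0.77, standard error 0.25), and Rnf128, a ubiquitin ligase, averaged 15.8 ± 4.55 against 31.2 ± 14.98 (-0.87, standard error 0.28). The other 6 were Prss41 (-0.96), Fam63a (-0.39), Rspo1 (-1.18), Bfsp1 (-1.36), Asic1 (-0.77) and Pou6f1 (-0.60). Prss41, Rspo1, Bfsp1 and Asic1 were near the filter, with means of 0.366 to 2.71 in the positive tumors. Prss41 reached 1 FPKM in 0 positive and 6 negative tumors, so it too passed only through the negative tumors and had to lie lower in the positive ones; its place among the genes most opposite to Neurod1 in rank, given below, shares this limit. The 10 lie on 7 chromosomes.

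**Figure D3:**
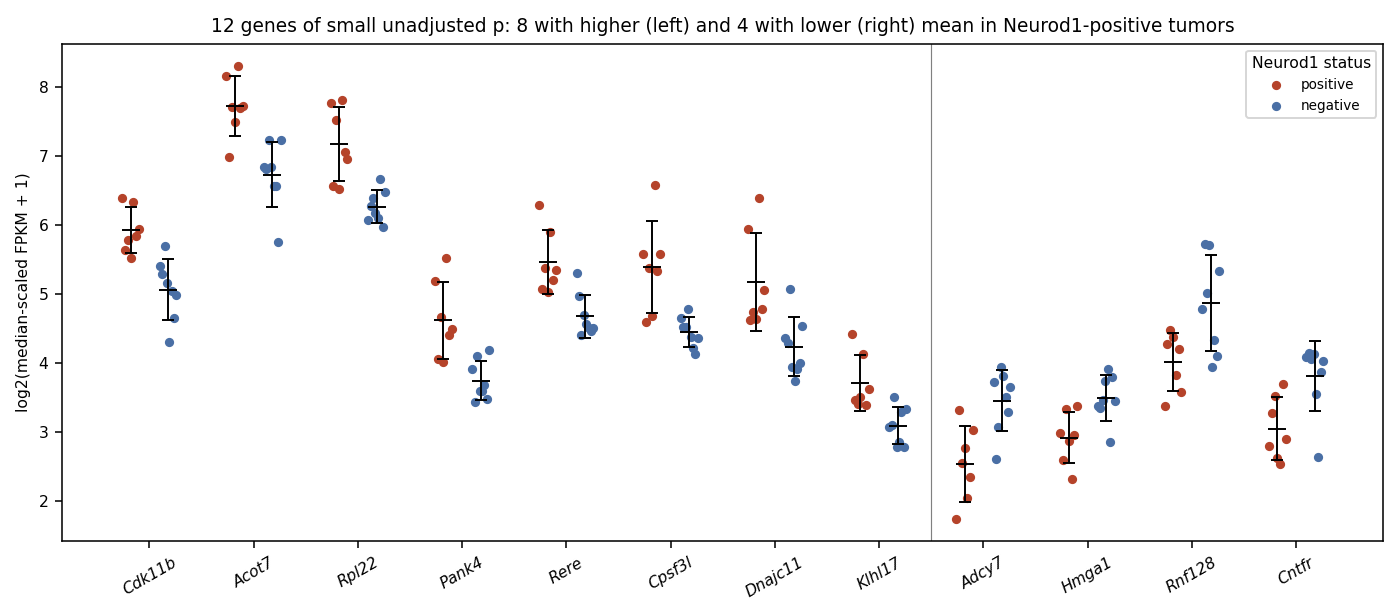
Log2(scaled FPKM + 1) of 12 genes of small unadjusted p in each positive (red) and negative (blue) tumor; horizontal bars are means and whiskers SDs (n = 7 and 8). The 8 genes on the left have a higher and the 4 on the right a lower mean in the positive tumors, and the groups overlap in every gene.

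To describe this along the genome, the tested genes were put in gene order and divided into 280 windows of about 50 genes, a step chosen after the result was seen and given no test. Of the 14119 genes, 14064 (99.6%) had a place in the RefSeq table. The last window of chromosome 4, from Ajap1 to Klhl17 (64 genes), had the largest median difference of all 280 windows, 0.58. In it 58 of 64 genes lay above 0 and 34 (53.1%) had an unadjusted p under 0.05 with a higher mean, against 1.81% of all tested genes, with 0 lower. The window before it, from Masp2 to Nphp4 (50 genes), ranked next, with a median of 0.39 and 19 such genes. The third largest, also on chromosome 4 (Zfp189 to Rgs3), was 0.23, and no other window exceeded 0.23 in size. Together the last 2 windows hold 53 of the 256 genes. Windows of 25 or 100 genes also put this part of chromosome 4 first, with medians of 0.65 (Slc45a1 to Nphp4) and 0.47 (Masp2 to Klhl17). The former lies within the window before the last. At the very end, the window from Ube2j2 to Klhl17 (14 genes) had a median of 0.48.

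**Figure D4:**
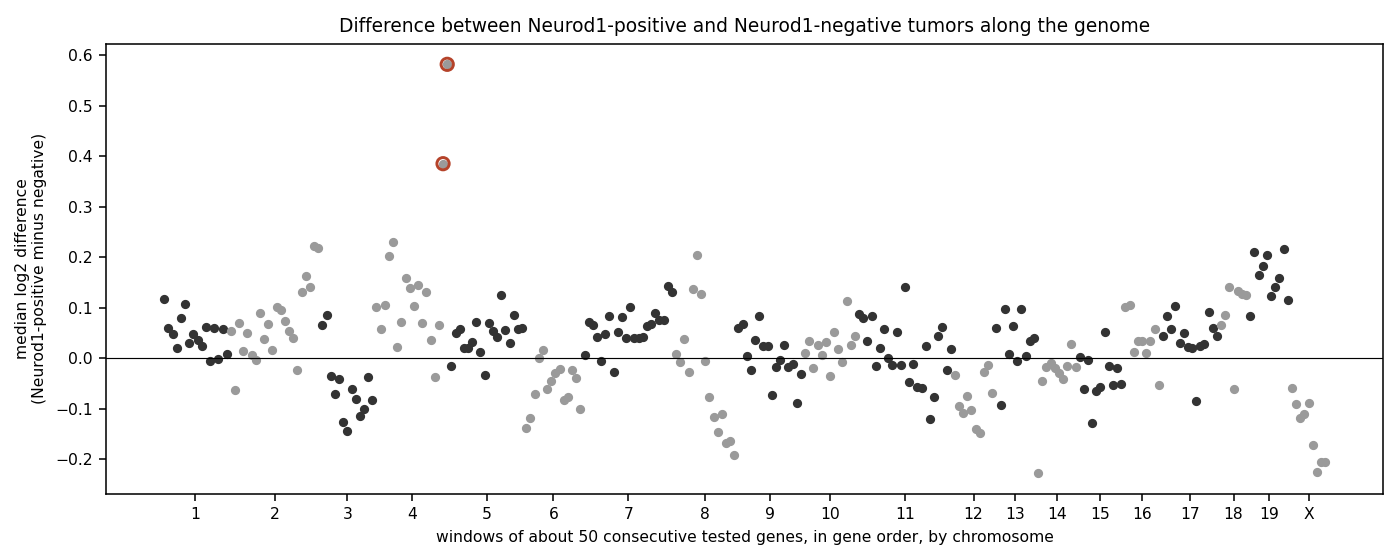
Median log2 difference, Neurod1-positive minus negative, in 280 windows of about 50 consecutive tested genes (vertical axis), in gene order by chromosome (horizontal axis, alternating shades). The 2 circled points, at 0.58 and 0.39, are the last 2 windows of chromosome 4.

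Genes in the last window have varied roles. Gnb1, a G protein beta subunit, had a median of 226 scaled FPKM in the positive and 166 in the negative tumors (log2 difference 0.74, standard error 0.23). Dvl1, which carries WNT signals, had medians of 55.3 and 34.2 (0.63, standard error 0.20). Trp73, a relative of p53 that RB loss is known to induce through E2F, ran from 5.28 to 43.7 (median 15.8) in the positive and from 5.72 to 14.99 (median 10.8) in the negative tumors (0.66, standard error 0.35). Prdm16, a transcriptional regulator of brown fat and stem cells, was among the 6 genes not above 0, with medians of 0.768 and 1.505 (-0.43, standard error 0.27). Over the 64 genes, mean levels ran from 0.828 to 214 scaled FPKM.

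The window's level in each tumor was taken as the median, over its 64 genes, of log2 level relative to that gene's median over the 15 tumors. In the positive tumors it was 0.77 in sgKdm5a RPP tumor 5, 0.68 in sgKdm5a RPP tumor 2, 0.31 in sgControl RPP tumors 2, 6 and 8, 0 in sgKdm5a RPP tumor 1 and -0.022 in sgKdm5a RPP tumor 6. In the negative tumors it was 0.14 in sgKdm5a RPP tumor 8 and between -0.12 and -0.069 in sgControl RPP tumors 4 and 5 and sgKdm5a RPP tumors 3, 4 and 7. It was -0.65 in sgControl RPP tumor 7 and -0.67 in sgControl RPP tumor 3. The groups overlapped, with 5 of 7 positive tumors above every negative tumor and the tumor with the second most Neurod1 among the remaining 2.

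The outermost tumors carried much of the difference. Without both highest tumors the window's median difference was 0.41, without both lowest 0.43, and without all 4 it was 0.19, with 4 of its genes at an unadjusted p under 0.05 instead of 34. The window before it went from 0.39 to 0.18, 0.44 and 0.16 in the same order, and to 0.25 without sgKdm5a RPP tumor 5 alone. The last window's difference was 0.39 among sgKdm5a-labelled and 0.72 among sgControl-labelled tumors, with 4 and 34 genes higher at unadjusted p under 0.05. It was 0.66 among tumors numbered 190 to 238 (33 such genes) and 0.57 among those numbered 839 to 893 (0 such genes). The latter were 5 tumors, of which sgControl RPP tumor 5 alone had the sgControl label. With the label as covariate, that tumor did not inform the difference, which rested on the sgKdm5a-labelled tumors of this range. The 2 positive tumors of the range had levels of 0.77 (sgKdm5a RPP tumor 5) and 0 (sgKdm5a RPP tumor 1). With the same mean marker level as a covariate the last window's difference was 0.51. DNA copy number was not measured, and its part in these RNA levels was not tested.

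Levels along the rest of chromosome 4 also came in long stretches that differed from tumor to tumor. In sgKdm5a RPP tumor 2, the tumor with the most Neurod1, each of the windows 3 to 18 lay above 0, at 0.37 to 0.96, and in sgKdm5a RPP tumor 5 each of the windows 8 to 18 lay at 0.23 to 0.87. Among the negative tumors, sgControl RPP tumor 3 stood at 0.22 to 1.02 in windows 9 to 16, at 0.075 in window 17 and at -0.67 in window 18. In sgKdm5a RPP tumor 3 the level was 0.33 to 0.77 in windows 7 to 16 and then -0.033 and -0.12. In sgControl RPP tumor 7 it was 0.12 to 0.80 in windows 9 to 15, then -0.052 in window 16, -0.59 in window 17 and -0.65 in window 18. Hence 3 negative tumors were high over much of the chromosome but not at its end. Mycl and Nfib, both known from recurrent gains in mouse small cell lung tumors, lie in windows 10 and 6. The 6 tumors with a window 10 level above 0 (0.37 to 0.80) were the 6 with the most Mycl, at 103 to 312 scaled FPKM, against 68.2 or less in the other 9, and they comprised 3 positive and 3 negative tumors. The most Nfib, 148 scaled FPKM, was in sgControl RPP tumor 7, whose window 6 level of 0.49 was the highest of the 15, and Nfib had a log2 difference of -0.23 (standard error 0.41).

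**Figure D5:**
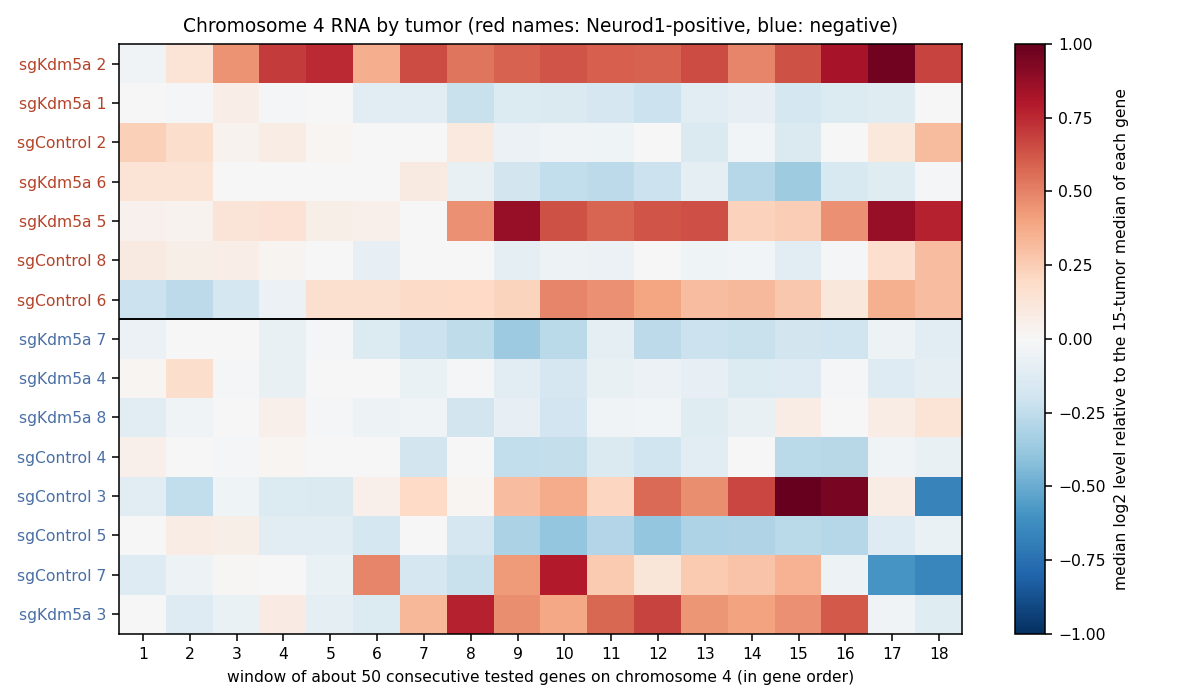
Level of 18 consecutive windows of chromosome 4 (horizontal axis, in gene order) in each of the 15 tumors (vertical axis, by Neurod1 from high to low, with positive tumors in red above the line and negative tumors in blue below it). Colour is the median log2 level relative to each gene's 15-tumor median, on a scale of -1 to 1; windows 17 and 18 are above 0.6 in sgKdm5a RPP tumors 2 and 5 and below -0.5 in sgControl RPP tumor 7.

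Ranking the tumors by Neurod1 instead of splitting them gave a like picture, which is no separate support since the tumors are the same. The 10 genes whose scaled level was most like Neurod1 by Spearman's rho over the 15 tumors included Nipsnap3b (0.85), Rere (0.84), Cdk11b (0.83), Mfap1a (0.82), C630043F03Rik (0.80), Clec16a (0.80), Cpsf3l (0.80), Phf13 (0.77) and A430005L14Rik (0.77). Of the 10, 8 lie on chromosome 4 and 6 in its last 2 windows. The most opposite were Prss41 (-0.86), 1700001O22Rik (-0.80), Ntpcr (-0.79), Mbtps1 (-0.77) and Smpdl3b (-0.76). Nipsnap3b, the gene most like Neurod1 in rank, had medians of 32.8 and 24.8 scaled FPKM with a log2 difference of 0.45 (standard error 0.14). Neurod4 had a rho of -0.018 with Neurod1.

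Genes next to Neurod1 on chromosome 2 did not share its range. Of 9 neighbours listed, 5 were tested, all 5 lay above 0 (median 0.17) and 0 were called. Ube2e3, a ubiquitin-conjugating enzyme, had medians of 92.3 and 71.8 scaled FPKM (0.38, standard error 0.23). Cerkl, a retinal gene beside Neurod1, was at most 1.12 and had its highest value in sgKdm5a RPP tumor 1.

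Of the engineered genes, the RNA of Kdm5a, Rb1 and Rbl2 overlapped between the groups, and Trp53 is not described here. Kdm5a averaged 10.8 ± 5.22 scaled FPKM in the positive and 10.5 ± 3.44 in the negative tumors (log2 difference -0.085, 95% interval -0.44 to 0.27). Rb1 averaged 10.6 ± 4.07 against 8.88 ± 3.88 (0.30, standard error 0.21) and Rbl2 7.34 ± 3.12 against 9.44 ± 2.81 (-0.32, standard error 0.19). These RNA levels do not show which alleles were edited.

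Whether the difference between positive and negative tumors itself differed between the labels was tested with an interaction term, with 3 and 4 tumors in the sgControl-labelled and 4 and 4 in the sgKdm5a-labelled set. No gene passed (0 of 14119, 0%), 724 had an unadjusted p under 0.05 (5.13%), and the smallest adjusted p was 0.117 (limma, Benjamini-Hochberg). Clic6, of the chloride intracellular channel family, shared that smallest value. It averaged 1.02 in positive and 9.48 scaled FPKM in negative sgControl-labelled tumors, against 3.72 and 1.36 in the sgKdm5a-labelled tumors.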

How the data were processed

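RNA-seq of bulk lung tumors was analysed. The deposited values were read as FPKM made by the authors: they are fractional, and weighted by transcript length their sum is 1.09 to 1.19 times that of true FPKM in 15 tumors and 0.368 times in the tumor left out. STAR 2.5.1b, Cufflinks 2.2.1 and build mm9 are named, per the submitters' processing notes. Read depth is unknown, so no counting error is given. Of 24043 entries, 27 with names turned into dates were left out.

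Each column was divided by its median over the 13104 genes that reached 1 FPKM in 8 or more of the 15 columns and multiplied by 11.8 FPKM. Genes reaching 1 FPKM in 4 or more columns were tested with limma 3.58.1 in R 4.3.3 (trend, robust, pseudocount 1, 12 residual degrees of freedom), adjusted by Benjamini-Hochberg over all genes at 0.05. The p-values set each difference against the spread among these tumors, treated as independent. Whether each tumor came from a different mouse is not known. The fit was tested on simulated data. Gene order came from RefSeq (GRCm38.p6), used without coordinates since the files are of mm9.

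Genes were named by a rule: the 10 genes of smallest p in each direction, the 2 of smallest p per list, a set of neuroendocrine factors, and the 10 genes most and 5 least like Neurod1 in rank. Not every gene it names is reported. Other genes named (Nkx2-2, Pou2f3, Atoh1, Neurod6, Neurog2, Cerkl, Dcn, Nfib, Trp73, Gnb1, Dvl1, Prdm16, Mcm6, Lmo1, Sstr2, Clic6) were chosen after their values were seen. The groups, members and lists were chosen with earlier results of these data known. The alternatives were other scalings, pseudocounts, filters, covariates, Neurod1 thresholds and subsets of tumors, and leaving out each tumor.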

Additional observations from a re-analysis of the deposited data

Results flagged for a closer look

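In 11 of 140 groups checked (69 genes named and the level of the last chromosome 4 window, each in positive and in negative tumors), the outermost tumor stood apart from the others on the log2 scale; chance alone gives about 1 in 20 such groups. All values are scaled FPKM, and their causes were not tested. Phf13 was 39.63 in sgKdm5a RPP tumor 2, the tumor with the most Neurod1, against 18.3 to 23.9 in the other positive tumors. In sgControl RPP tumor 2, Rb1 was 19.57 against 7.58 to 10.4 in the other positive tumors, and Bfsp1 was 11.14 against 0.334 to 2.35. Among the negative tumors, Myc was 27.06 in sgKdm5a RPP tumor 8, against 3.22 to 7.79. In sgControl RPP tumor 5, Stmn2 was 7.883 against 0.282 to 1.75, Abca3 was 33.76 against 15.3 to 20.9, and Cntfr was 5.262 against 10.7 to 16.6. In sgControl RPP tumor 7, Acot7 was 53.14 against 93.1 to 149, and Nfib was 148.2 against 13.3 to 41.6. Id2 was 17.22 in sgControl RPP tumor 4, against 57.5 to 150.4. Prdm16 was 0.1887 in sgKdm5a RPP tumor 4, against 1.12 to 1.94.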

How the results depend on the processing

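Over 23 alternatives and 15 fits that each left out 1 tumor, 2590 of 2619 values of the 69 named genes kept their direction. Many of these genes were named by their p or rank in the same tumors, so the kept directions are no separate support. The count of genes called was 0 except in 3 settings: 1 with the replicate number as a block (Mir22), 1 among sgKdm5a-labelled tumors alone (Gal) and 3 among tumors numbered 839 to 893 alone (Mir692-2b, Snora52 and Snora68). Among tumors numbered 839 to 893, sgControl RPP tumor 5 alone had the sgControl label, so with the label as covariate it did not inform the differences. Whether same-numbered tumors are paired is not known. They correlated at -0.29 to 0.33 over 7 pairs, 3 of them over 0.1, and 1 of 7 correlated best with its own number. Correlations of so few and varied tumors cannot decide it. The causes of these changes were not tested. Each fit without 1 tumor called 0 genes. The last chromosome 4 window's median difference of 0.58 was 0.24 in units of the column median, where the pseudocount weighs more, 0.19 per log2 unit of Neurod1, and 0.19 without its 4 outermost tumors. It was 0.46 to 0.65 with 1 tumor left out.

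Directions changed for genes with small differences in the main comparison, such as Kdm5a (-0.085). They also changed for genes with large ones, such as Th (-1.78), Mzb1 (1.18) and Col6a3 (-1.08). With the replicate block, Chga was 0.14, Th 1.001, Mzb1 -0.10, Nfib 0.0083 and Id2 -0.10. In sgKdm5a-labelled tumors alone, Insm1 was 0.14, Hes6 -0.31, Kdm5a 0.034, Nfib 0.068, Sstr2 -0.50 and Id2 -0.051, and in sgControl-labelled tumors alone Chga was 0.36 and Col6a3 0.022. In tumors numbered 190 to 238, Neurog3 was -0.84 and Kdm5a 0.034; in those numbered 839 to 893, Insm1 was 0.84, Hes6 -0.36, Myc 0.031, Jag1 0.31 and Nfib 0.068. With continuous Neurod1, Neurog3 was -0.21, Kdm5a 0.010 and Nfib 0.043. Without the 4 outermost tumors of the window Lmo1 was -0.030. Mycl was -0.029 without both highest tumors of the window and Nfib 0.085 without both lowest. With 1 tumor left out, Neurog3 ranged from -0.013 to 1.04 and Nfib from -0.50 to 0.018.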

Other observations

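The difference between positive and negative tumors also varied between whole chromosomes, and these values carry no test. The median log2 difference was largest on chromosome 19, at 0.16 over 489 genes, of which 18 had a higher and 1 a lower mean at an unadjusted p under 0.05, and it was 0.12 over the 914 tested genes of chromosome 4. It was lowest on the X chromosome, at -0.14 over 465 genes, with 1 higher and 9 lower. The first window of chromosome 14, from Gm2897 to Kcnk16, had a median of -0.23, and 2 of its 50 genes lay above 0. Each of windows 10 to 15, at the end of chromosome 8, had a median between -0.19 and -0.11. In window 15, from Rhou to 2610044O15Rik8, 1 of 38 genes lay above 0.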
